A study of Populus ussuriensis with 12 samples.

Results

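The genes described here had a higher level in poplar roots overexpressing PuHox52 than in wild-type roots at normal nitrogen (N) supply. At low N their difference between the genotypes stayed under a set limit. These genes were chosen from the measured values themselves. Levels are in FPKM, which counts fragments per gene length and per mapped fragments of a library, and were compared as log2(FPKM + 1). A member had to lie at least 0.8 higher in overexpression than in wild-type roots at normal N and to differ by less than 0.7 in either direction at low N, as means of 3 libraries on that scale. It also needed 1 FPKM or more in 3 or more of the 12 libraries, and the run of IDs from Potri.013G000100 to Potri.013G032200 was left out. The rule chose 64 of the 24356 eligible genes. The normal-N threshold alone was met by 141 eligible genes, of which 36 were also at least 0.7 higher and 41 at least 0.7 lower in overexpression roots at low N. The whole table holds 34699 gene IDs, of which 24570 passed the filter on low values and were tested, 214 of them in the excluded run.

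The roots came from Populus ussuriensis, a poplar propagated clonally in vitro, kept for 3 weeks on normal-N or low-N medium after growth on a woody plant medium. The 4 groups were wild type at normal N, PuHox52-OE (overexpression) at normal N, wild type at low N and PuHox52-OE at low N, with 3 libraries each, which the series' design text calls biological replicates. The sources used here give neither the promoter that drives PuHox52 in the OE plants, nor the number of transgenic lines, nor the N concentrations. The table gives Potri IDs without gene names, and no annotation was used here, so members are given by ID without a role, and the tissue could not be checked against marker genes.

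As background, PuHox52 belongs to the HD-Zip proteins, a plant-specific family of transcription factors that pair a homeodomain, which contacts DNA, with a leucine zipper, through which they dimerise. Members of its subfamily are known from responses of plants to water deficit and light, and PuHox52 itself from the formation of adventitious roots. Roots take up N mainly as nitrate and ammonium, and low N changes the levels of transporters, assimilation enzymes and growth regulators in them. A genotype difference that depends on N supply is visible here because each genotype was grown at each supply.

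The libraries differed in ways that touch the members. Relative depth, read from the steps in which low FPKM values move, was 1 to 1.22 in the normal-N libraries and 0.447 to 0.501 in the low-N libraries, so weak members are less precise at low N. Absolute depth is unknown. Extraction and sequencing were shared between 2 companies without a link to libraries in the labels, so N supply, depth and a library batch cannot be told apart in any comparison of low N with normal N. In bulk roots, fewer cells of a type and less RNA per cell cannot be told apart either.

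At normal N the members were 1.74-fold to 21.6-fold higher in OE than in wild-type roots by mean FPKM, with a median of 2.32-fold. On the log2(FPKM + 1) scale the differences ran from 0.80 to 1.81 with a median of 0.98, against a median of -0.08 over all tested genes. Over all tested genes 0.611% reached 0.8. These values chose the members and are given as a description, with no test. A difference of at least 1 was reached by 26 of the 64 members and one of at least 1.5 by 3. The 3 OE libraries lay above the 3 wild-type libraries in 63 members. Over all tested genes that held for 14.6%, and nothing is read from this since the rule used the same contrast.

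The one member with overlapping groups was Potri.003G210900. It lay at 1.37, 2.03 and 11.4 FPKM in wild type and at 11.8, 9.16 and 13.2 in OE roots at normal N. Wild-type replicate 3 was as high as the OE libraries, and the other wild-type libraries were far lower, so the difference of 1.46 on the log2 scale rests on those. Potri.005G029900, chosen after its values were seen, did not overlap, but its wild-type replicate 2 alone was far lower. It lay at 3.77, 0.513 and 4.13 FPKM in wild type and at 4.38, 4.50 and 5.73 in OE roots at normal N. Its difference was 0.81, and it was not selected without that library or without OE normal-N replicate 3.

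**Figure D1:**
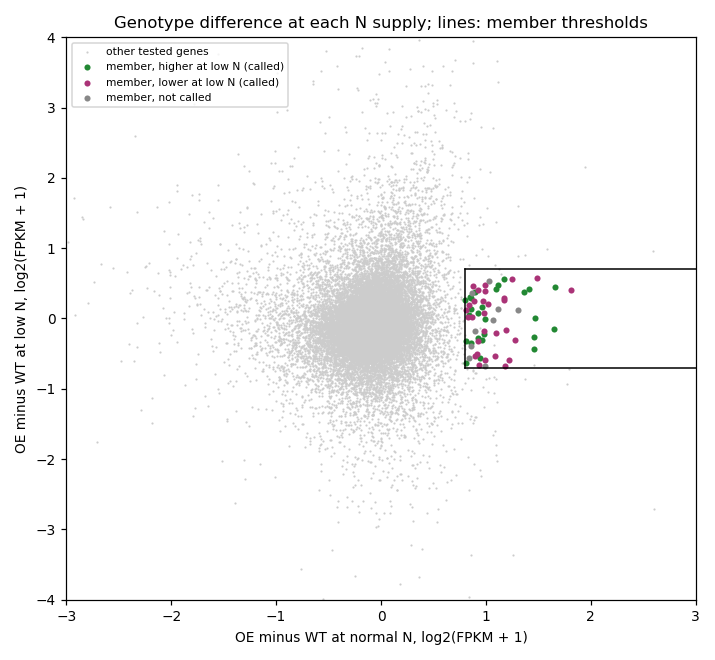
Difference between OE and wild-type roots at normal N (x axis) and at low N (y axis) in log2(FPKM + 1), one point per tested gene. Grey points are other genes, coloured points the 64 members by their average low-N effect, and black lines the member thresholds of 0.8 at normal N and 0.7 at low N; 23 genes lie outside the plotted range. The members lie between -0.68 and 0.57 on the y axis and thin out beyond 1.5 on the x axis.

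Among members with at least 5 FPKM in OE roots at normal N, Potri.011G041124 had the largest difference. It measured 5.95, 11.3 and 6.75 FPKM in wild type and 25.9, 30.9 and 32.7 in OE roots at normal N, a difference of 1.81. At low N it was at 3.02, 1.13 and 2.28 FPKM in wild type and 5.18, 1.22 and 3.80 in OE roots. The normal-N groups were far apart, and the low-N groups overlapped below every normal-N library.

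Potri.001G220900 followed, with 2.71, 3.27 and 3.75 FPKM in wild type and 12.2, 12.2 and 12.3 in OE roots at normal N. At low N it measured 27.6, 20.7 and 29.9 FPKM in wild type and 16.96, 29.6 and 24.7 in OE roots. Here the OE libraries at normal N were tightly grouped between the wild-type libraries at normal N and all low-N libraries. Potri.005G155300 had the same order, with 2.30, 2.28 and 2.04 FPKM in wild type and 7.98, 7.70 and 6.83 in OE roots at normal N. Its low-N libraries were at 12.2, 7.59 and 14.8 FPKM in wild type and 17.5, 14.7 and 13.5 in OE roots. Wild-type low-N replicate 2 of this gene fell within the range of the OE libraries at normal N.

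Potri.007G120601 resembled Potri.011G041124 in its order of groups. Its levels were 2.42, 2.26 and 2.03 FPKM in wild type and 8.94, 8.06 and 7.32 in OE roots at normal N. At low N they were 0.443, 0.276 and a listed 0 in wild type and 0.422, 2.24 and 0.310 in OE roots. OE low-N replicate 2 alone reached the wild-type level of normal N. Mean FPKM at low N was 0.992 in OE roots against 0.240 in wild type, a difference of 0.57 on the log2(FPKM + 1) scale. With a pseudocount of 0.1 this gene did not meet the member rule.

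Potri.004G152300 stood high in one group alone. It lay at 23.3, 25.0 and 25.6 FPKM in wild type and at 58.8, 61.8 and 62.1 in OE roots at normal N, a 2.47-fold higher mean. At low N the values were 28.5, 23.9 and 25.7 FPKM in wild type and 21.8, 22.8 and 17.8 in OE roots, close to the wild type at normal N. The low-N response on the log2 scale was 0.07 in wild type and -1.51 in OE roots. The member rule fixes that the OE value is the lower of the 2.

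**Figure D2:**
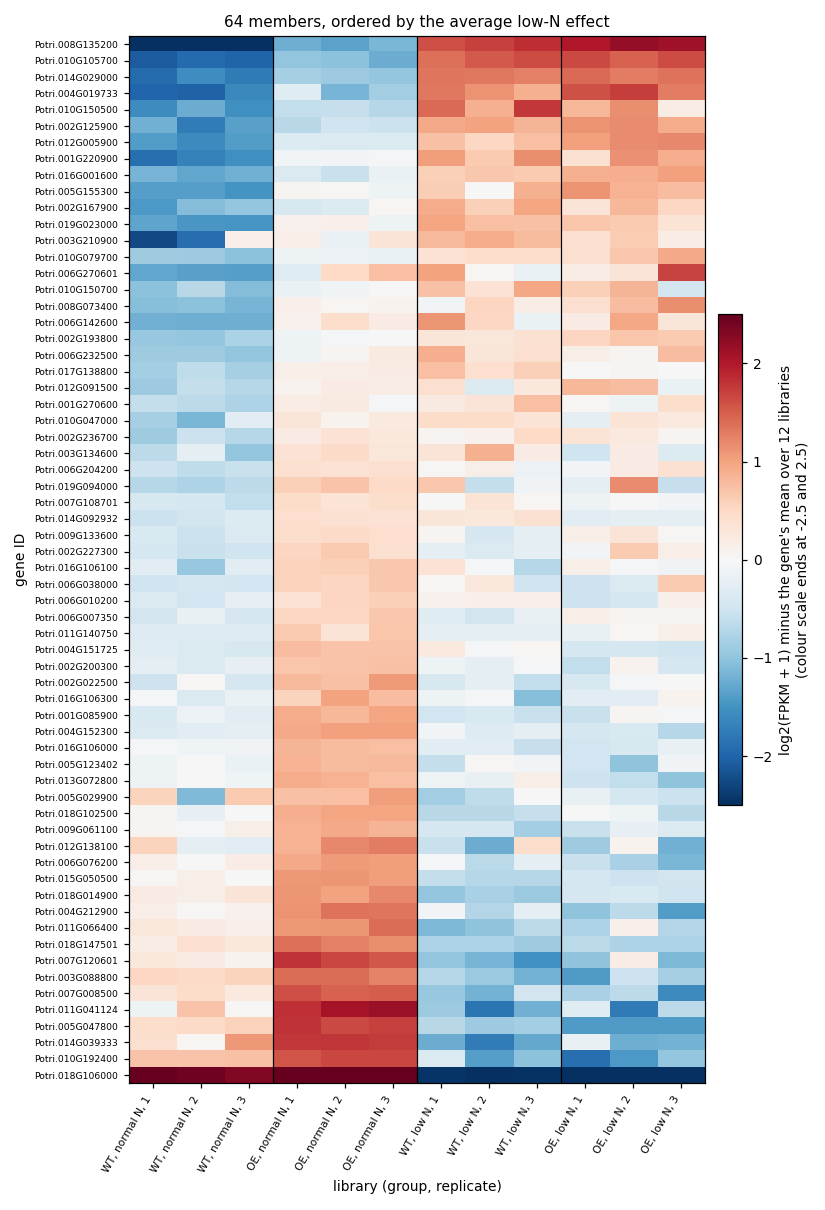
The 64 members (rows, gene IDs) in the 12 libraries (columns, by group and replicate), coloured by log2(FPKM + 1) minus the gene's mean over all libraries and ordered by the average low-N effect. In the upper rows the wild-type libraries at normal N are the lowest, and in the lower rows the OE libraries at normal N are the highest. The member rule fixes both for the group means.

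At low N the difference between OE and wild type ran from -0.68 to 0.57 over the members, with a median of 0.06; OE roots were higher in 36 members and lower in 28. The low-N libraries of the genotypes overlapped in 43 of the 64 members. Over all tested genes they overlapped in 47.1%, and since the rule used this contrast nothing is read from the comparison. The remaining 21 members kept a separation without overlap inside the rule's limit, 11 with OE higher and 10 with OE lower, so "normal N only" describes the threshold and not equal levels. Potri.012G005900, chosen after its values were seen, was at 26.3, 22.6 and 26.8 FPKM in wild type and at 32.6, 36.5 and 36.9 in OE roots at low N.

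The pseudocount also lets weak genes through. Potri.005G047800, likewise chosen after its values were seen, had 0.759, 0.517 and 0.587 FPKM in wild type and 0.0658, 0.0700 and 0.0725 in OE roots at low N. Every OE library lay several-fold below every wild-type library, yet the log2(FPKM + 1) difference was -0.60. With a pseudocount of 0.1 in place of 1, 13 of the 64 members no longer met the rule, 9 of them with a group mean under 1 FPKM.

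The average effect of low N over both genotypes is a contrast that the rule did not name, but the choice of members bears on it. On the log2(FPKM + 1) scale a gene near 0 FPKM at low N meets the low-N limit almost whatever its ratio between genotypes, so the rule favours members that fall at low N. The test below is therefore given gene by gene, and the numbers rising and falling describe the chosen genes. By limma with Benjamini-Hochberg adjustment over all tested genes, 26 of the 64 members rose at low N, 29 fell and 9 did not pass at an adjusted p under 0.05. The 55 called members compare with 77.6% called among all tested genes. Among all tested genes 51.8% rose and 25.8% fell, against 40.6% and 45.3% of the members. The median effect was -0.07 in the members and 0.20 over all tested genes. After median-of-ratios scaling the median of all genes moved to 0.01, with 37.9% rising and 37.6% falling, and 24 members rose and 31 fell. The pseudocount of the rule also bears on these numbers. Of the 13 members that leave the set with a pseudocount of 0.1, 10 fell, 3 did not pass and 0 rose. The 51 that stay hold 26 rises and 19 falls, with a median effect of 0.18, so rises then outnumber falls. With the filter raised to 5 FPKM in 3 libraries, 48 members were tested, of which 23 rose and 19 fell, and their median was 0.13. Nothing about N is read from the members' shares against those of all genes. Without any overlap between the 6 low-N and the 6 normal-N libraries, 13 members were higher at low N, against 29.8% of all tested genes, and 15 were lower, against 12.5%.

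**Figure D3:**
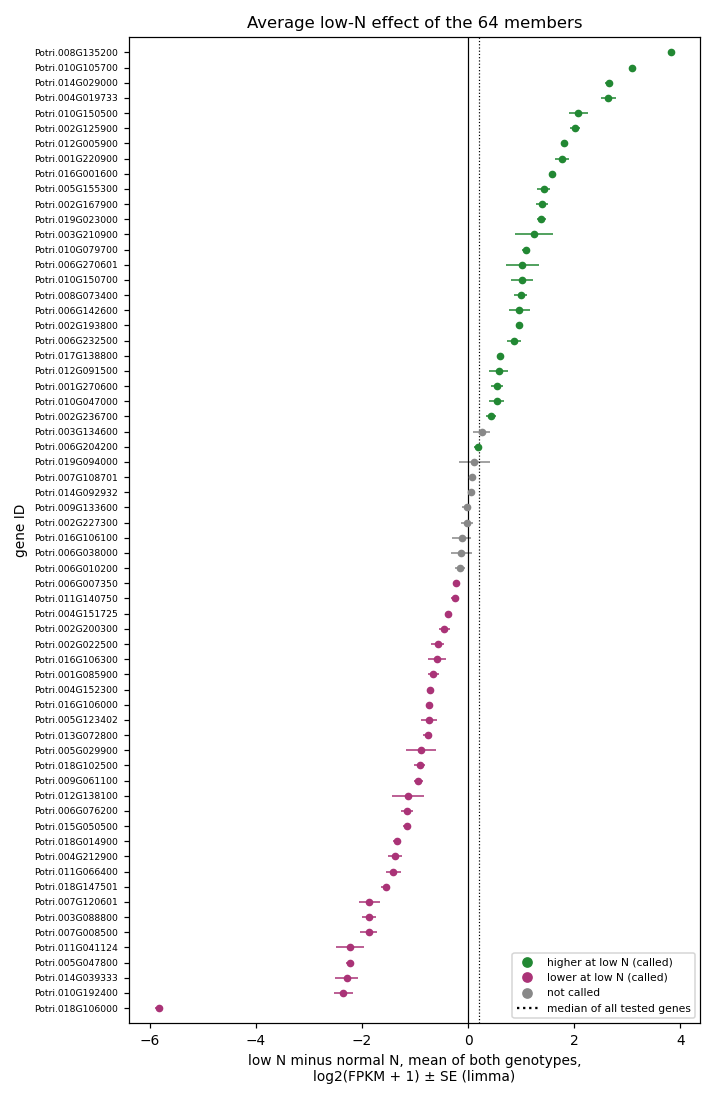
Average low-N effect of each of the 64 members (rows) in log2(FPKM + 1), low N minus normal N as the mean of both genotypes, with its standard error from limma; green and purple points passed the test and grey points did not. The members run from -5.82 to 3.82, and the dotted line marks the median of all tested genes at 0.20.

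For a member that rises at low N, the rule fixes the wild type at normal N as the lowest group mean in log2. In 25 of the 26 rising members all 3 wild-type libraries at normal N lay below the other 9, against 3.84% of all tested genes. Nothing is read from that share, since the order of the means was fixed. The 26 had a median level of 3.52 FPKM in wild type and 8.75 in OE roots at normal N. At low N their medians were 19.2 and 22.0 FPKM in the same order. Over all members, 20 had both low-N means above the OE mean of normal N, so that OE roots at normal N held a level between the wild type at normal N and the low-N roots. In 14 members with the wild type at normal N lowest, the OE libraries of normal N overlapped with those of a low-N group. These counts over all members have no share over all tested genes beside them, and nothing is read from them.

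The largest rise was that of Potri.008G135200. It measured 0.733, 0.609 and 0.581 FPKM in wild type and 3.24, 2.91 and 3.48 in OE roots at normal N. At low N it reached 29.1, 31.4 and 34.5 FPKM in wild type and 38.4, 44.3 and 41.8 in OE roots. All 4 groups were separate, and the average low-N effect was 3.82 ± 0.0615 (SE) on the log2 scale (limma adjusted p = 2.63e-14).

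Potri.010G105700 went from 1.11, 1.30 and 1.21 FPKM in wild type and 3.46, 3.36 and 2.78 in OE roots at normal N to 22.0, 24.6 and 26.4 in wild type and 27.0, 23.7 and 26.6 in OE roots at low N. Its average low-N effect was 3.10 ± 0.0649 (SE; limma adjusted p = 3.97e-13). Potri.014G029000 was at 1.15, 1.77 and 1.38 FPKM in wild type and 3.55, 3.35 and 3.14 in OE roots at normal N, and at 19.4, 19.2 and 18.4 and 20.8, 18.6 and 19.7 FPKM at low N. For both genes the genotypes overlapped at low N at a level far above the OE libraries of normal N.

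Other members reached in OE roots at normal N about the level that both genotypes had at low N. Potri.002G236700, chosen after its values were seen, had 2.91 ± 0.487 FPKM in wild type and 6.72 ± 0.422 in OE roots at normal N; at low N these were 6.51 ± 1.33 and 6.43 ± 0.737 (SD, n = 3). Potri.006G142600, chosen in the same way, had 0.165 ± 0.00769 and 2.24 ± 0.399 FPKM at normal N, against 3.04 ± 1.71 and 2.91 ± 1.18 at low N. For Potri.002G236700 the average low-N effect of 0.44 passed the test with deposited values but not after quantile normalization, at 0.19 (limma adjusted p = 0.0733). The weakest rise, 0.18 in Potri.006G204200, did not pass under either rescaling and turned to -0.04 after median-of-ratios scaling. It also did not pass when OE low-N replicate 2 or 3, OE normal-N replicate 2, wild-type low-N replicate 1 or 2, or wild-type normal-N replicate 2 was left out, with effects of 0.13 to 0.18.

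In each of the 29 members that fell at low N, the 3 OE libraries at normal N lay above the other 9. Over all tested genes that held for 5.91%. For a member that falls, the rule fixes OE roots at normal N as the highest group mean in log2. Nothing is read from that share. For 2 of the 29, Potri.002G022500 and Potri.015G050500, the filter also fixed the order of the libraries and favoured the fall. No library of these 2 genes outside OE roots at normal N reached 1 FPKM. The median level of all 29 was 6.02 FPKM in wild type and 12.4 in OE roots at normal N, against 2.14 and 2.02 FPKM at low N. Over all members, 20 had both low-N means below the wild-type mean of normal N. This count too has no share over all tested genes beside it, and nothing is read from it.

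Potri.018G106000 fell furthest. It was at 51.6, 48.5 and 44.8 FPKM in wild type and at 93.7, 96.4 and 101 in OE roots at normal N. At low N it was at 0.695, 0.217 and 0.657 FPKM in wild type and was listed at 0 in all 3 OE libraries. Its average effect of -5.82 on the log2(FPKM + 1) scale (limma adjusted p = 4.38e-15) depends on the pseudocount and is no bound on the fold change. With a pseudocount of 0.1 this gene did not meet the member rule.

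Potri.010G192400 held 35.5, 35.8 and 35.9 FPKM in wild type and 65.9, 69.8 and 69.7 in OE roots at normal N, with little spread in either group. At low N it was at 16.3, 7.62 and 9.92 FPKM in wild type and 5.03, 7.31 and 10.5 in OE roots, a wide and overlapping range. The average low-N effect was -2.35 ± 0.178 (SE; limma adjusted p = 4.10e-07). Potri.014G039333 fell by 2.29 ± 0.213 (SE; limma adjusted p = 1.65e-06), with 6.31, 4.70 and 10.7 FPKM in wild type and 17.6, 18.1 and 17.6 in OE roots at normal N. At low N it had 1.34, 0.629 and 1.27 FPKM in wild type and 3.84, 1.36 and 1.41 in OE roots. The genotypes did not overlap there, with OE higher by 0.56 on the log2 scale. Mean FPKM was 2.21 in OE roots against 1.08 in wild type at low N. With a pseudocount of 0.1 this gene did not meet the member rule.

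**Figure D4:**
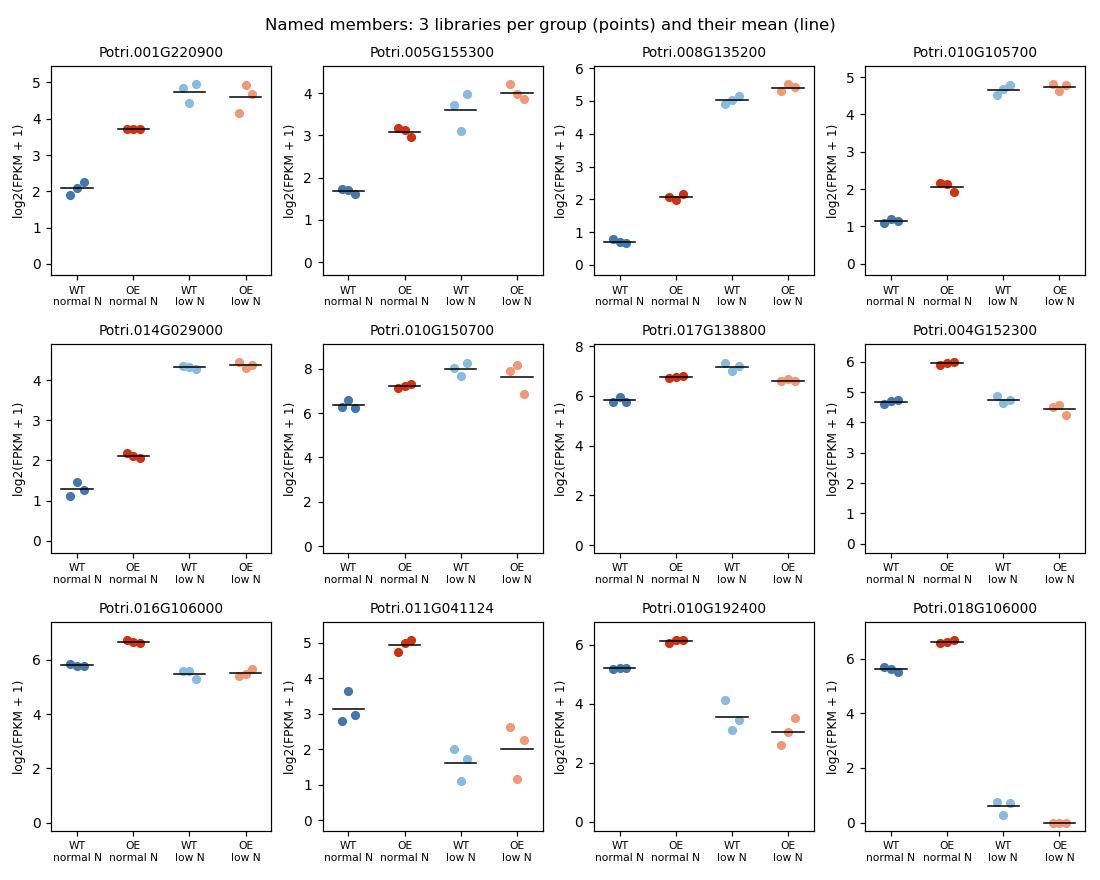
Levels of 12 members named in the text, log2(FPKM + 1) on the y axis, with 3 libraries per group as points and their mean as a line. In the top row the OE libraries at normal N lie between the wild type at normal N and most low-N libraries, and Potri.018G106000 is near or at 0 in all 6 low-N libraries.

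Of the 9 members that did not pass the low-N test, 4 had the OE libraries at normal N above all others. Over all tested genes that held for 5.91%. The member rule favours this order, so nothing is read from the count. Potri.019G094000, chosen after its values were seen, had the highest fold difference of all members at normal N. It measured 0.0812, 0.0378 and 0.112 FPKM in wild type against 1.67, 1.88 and 1.44 in OE roots. At low N it was scattered, at 1.82, 0.162 and 0.654 FPKM in wild type and 0.495, 2.98 and 0.182 in OE roots, so the small group difference there comes with a spread wider than itself. Over the alternatives run, 6 of the 9 passed in at least one, 5 as falls and 1 as a rise. After median-of-ratios scaling Potri.006G010200 passed at -0.37 and Potri.009G133600 at -0.22. After quantile normalization these and Potri.002G227300 and Potri.014G092932 passed, with effects of -0.28 to -0.22. With library weights Potri.006G010200 passed at -0.18. Without OE low-N replicate 3, Potri.006G010200 passed with an effect of -0.25 and Potri.006G038000 with -0.31. The rise was Potri.003G134600, at 0.26 with a replicate block.

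By level, 22 members had a mean under 5 FPKM in OE roots at normal N, 22 had 5 to 20 FPKM and 20 had more. The filter on low values was passed by 2 members through the OE libraries of normal N alone. Without those libraries 5 would not have passed, of which 3 fell at low N and 2 were not called. The most abundant in OE roots at normal N was Potri.010G150700, with 76.8, 96.4 and 73.4 FPKM in wild type and 141, 148 and 157 in OE roots at normal N. Its low-N libraries spread over 201 to 309 FPKM in wild type and over 114 to 283 in OE roots.

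Potri.008G073400 had 58.7, 60.6 and 54.9 FPKM in wild type and 136, 128 and 132 in OE roots at normal N. At low N it lay at 119, 179 and 140 FPKM in wild type and at 163, 212 and 277 in OE roots, an average low-N effect of 0.99 ± 0.124 (SE; limma adjusted p = 1.80e-05). The OE libraries of normal N fell within the range of the wild type at low N.

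Potri.017G138800 had 52.6, 60.9 and 53.5 FPKM in wild type and 105, 108 and 111 in OE roots at normal N. At low N it was at 161, 127 and 146 FPKM in wild type and at 94.5, 100 and 95.7 in OE roots. The wild type thus ran from the lowest to the highest group between the N supplies, while the OE groups lay close to each other. By deposited values it is 1 of 7 members whose low-N libraries were, without overlap, above those of normal N in wild type and below them in OE roots. That pattern held for 2.82% of all tested genes, and the rule favours it. The opposite, below in wild type and above in OE roots, held for 3.48% of all tested genes. No member can show it, since the rule excludes it.

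Members were found in each of the 19 numbered ID series, from 1 to 8 in each. Only Potri.016G106000, Potri.016G106100 and Potri.016G106300 stood next to each other in the ID order of the table. Potri.016G106000 had 56.4, 53.4 and 53.9 FPKM in wild type and 104, 99.9 and 97.3 in OE roots at normal N. Potri.016G106100 had 6.71, 3.77 and 6.53 FPKM against 12.8 to 13.7, and Potri.016G106300 had 13.7, 10.8 and 12.5 against 21.2, 29.6 and 25.0 FPKM. All 3 were higher in every OE library than in every wild-type library.

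At low N the genotype differences in this run were 0.02, 0.14 and 0.25 on the log2 scale. The average low-N effect was -0.73 ± 0.0632 in Potri.016G106000 (SE; limma adjusted p = 2.31e-07) and -0.59 ± 0.169 in Potri.016G106300 (adjusted p = 0.0080). Potri.016G106100 did not pass, at -0.12 ± 0.173 (adjusted p = 0.539), and its sign turned to 0.03 without wild-type low-N replicate 3. The 4 IDs before the run differed by -0.24 to -0.03 at normal N, and the next ID, Potri.016G106400, was listed at 0 in all groups. Adjacent genes can be near-identical copies that share reads, and the sources used here do not say how reads were assigned to them, so the split of the signal among these 3 IDs is uncertain.

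Other members stood near IDs that also differed at normal N, some of them with another pattern, noticed after their values were seen. Potri.010G150500 and Potri.010G150700 are separated by Potri.010G150601, which differed by 0.05 at normal N. Potri.010G150500 had 49.8, 62.6 and 51.2 FPKM in wild type and 97.7, 99.9 and 90.9 in OE roots at normal N. At low N it was at 403, 279 and 509 FPKM in wild type and 267, 334 and 170 in OE roots, with overlapping genotypes well above normal N. Its differences of 0.81 at normal N and -0.63 at low N were near both limits. Potri.010G150500 was selected in 7 of the 12 selections with 1 library left out, the fewest of any member. It was not selected after quantile normalization. Potri.010G150800, which follows closely and is no member, differed by 0.67 at normal N and -0.24 at low N. Potri.006G010200 stands beside Potri.006G010300, which missed the threshold with 0.79 at normal N. Potri.006G007350, with differences of 0.93 at normal N and 0.41 at low N, directly follows Potri.006G007100, Potri.006G007200 and Potri.006G007300, which are no members. Those differed by 0.79, 0.82 and 0.63 at normal N and by -0.50, -0.72 and -0.51 at low N. The ID after this member, Potri.006G007400, differed by 0.14 at normal N and -0.88 at low N. Potri.002G022500, a weak member at 0.263 FPKM in wild type and 1.82 in OE roots, stands beside Potri.002G022600, whose differences of 2.60 at normal N and -2.71 at low N have opposite signs. The ID after it, Potri.002G022700, differed by -2.12 at normal N and -0.35 at low N.

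**Figure D5:**
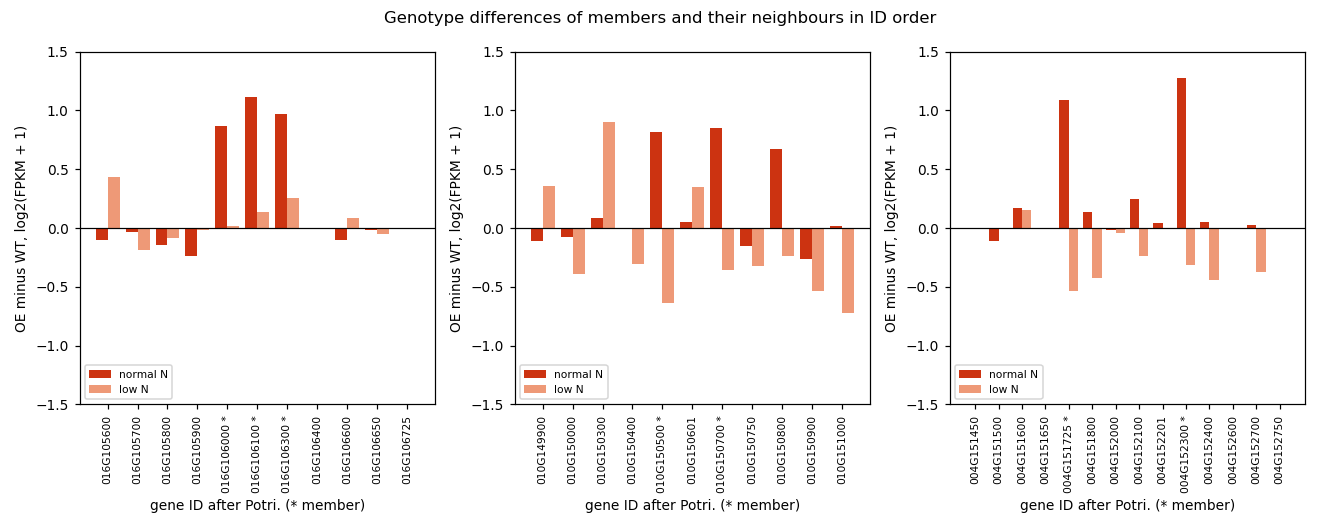
Difference between OE and wild-type roots at normal N (dark bars) and low N (light bars) in log2(FPKM + 1) for members, marked by an asterisk, and their neighbours in ID order. The 3 members of the 016G106 run reach 0.87 to 1.12 at normal N while the 4 IDs before them lie between -0.24 and -0.03.

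The low-N levels of the members were less even between replicates than those of other genes. On the log2 scale, the median SD between replicates was 0.214 in wild type and 0.243 in OE roots at low N, against 0.108 and 0.129 over all tested genes. At normal N the members' medians were 0.0961 and 0.0819, against 0.0974 and 0.0768. The 36 genes raised at normal N and by at least 0.7 at low N had low-N medians of 0.284 and 0.331, and the 41 raised at normal N and lowered by at least 0.7 at low N had 0.226 and 0.239, so the wide low-N spread was seen in all 3 sets. Within the OE low-N group, replicate 2 was the highest library in 45.3% of the members and replicate 1 the lowest in 46.9%, against 30.7% and 27.95% of all tested genes. The part of depth and of single libraries in this spread was not tested.

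At the edge of the normal-N threshold, Potri.010G079700 was just inside with a difference of 0.80 and Potri.001G270600 with 0.81. Just outside were Potri.004G020100 and Potri.016G114200, which also round to 0.80. At the low-N limit, Potri.003G134600 with -0.68 and Potri.004G212900 with -0.67 were just inside. Potri.010G173300 with 0.70 and Potri.006G007200 with -0.72 were just outside.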

How the data were processed

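Roots of 2 genotypes at 2 N supplies were profiled by RNA-seq, 12 libraries in 4 groups of 3. The deposited values are FPKM per gene and library, with no pooling; per the submitters' processing notes, TopHat and DESeq2 were used by the authors, without version or role, and the sources used here give no genome build, annotation or counting program. Columns were matched to samples by the description labels, and 0 other per-sample columns were present. Genes with at least 1 FPKM in 3 libraries were fitted as log2(FPKM + 1) in R 4.3.3 with limma 3.58.1, with 1 mean per group and eBayes with trend and robust estimation. Such differences understate changes of weak genes. The average low-N effect was tested, with Benjamini-Hochberg adjustment over 24570 genes and a threshold of 0.05. FPKM are not counts, so no count model was fitted; depth beyond relative steps is unknown, which leaves no counting interval to give.

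Members, lists and tests were chosen with earlier results of these data known. Named members were the 6 with the largest normal-N difference at 5 FPKM or more, the 4 most abundant in OE roots at normal N, the 3 largest called rises and falls at low N, those adjacent in ID order and those at the thresholds. Lists by gene function, promoter motifs and tissue markers could not be run without gene names. Alternatives covered pseudocount, filter, scaling, variance model, library weights, a replicate block, thresholds and leaving out each library.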

Additional observations from a re-analysis of the deposited data

Results flagged for a closer look

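In 7 members, by deposited values, the low-N libraries lay above the normal-N libraries in wild type and below them in OE roots, without overlap. Over all tested genes this held for 2.82%. The member rule excludes the opposite pattern, which 3.48% of tested genes showed. For every member the rule also fixes a lower low-N response in OE roots than in wild type. The sign of the differences below is therefore no result, and the difference between the genotypes was not tested for these genes. The OE response minus the wild-type response, on the log2 scale, was -1.62 in Potri.004G151725, -1.67 in Potri.003G134600, -1.51 in Potri.017G138800, -1.07 in Potri.007G108701, -0.64 in Potri.011G140750, -1.24 in Potri.006G010200 and -1.40 in Potri.014G092932. Potri.004G151725 shows the pattern at 7.91, 7.53 and 7.32 FPKM in wild type and 17.7, 17.1 and 16.9 in OE roots at normal N, and 11.97, 9.68 and 10.3 and 7.06, 7.13 and 6.78 FPKM at low N. In this gene the OE roots at low N were below every wild-type library of normal N. The wild-type rise of Potri.011G140750 was only 0.08 on the log2 scale, from 6.33, 6.28 and 6.24 FPKM to 6.68, 6.72 and 6.67. Median-of-ratios size factors were 0.959 to 0.975 in wild type at normal N and 1.12 to 1.13 at low N, so that rise depends on the scaling. The pattern was not counted after rescaling.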

How the results depend on the processing

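The number of genes the rule selects was 126 with a pseudocount of 0.1 FPKM (51 of the 64 members among them), 107 after median-of-ratios scaling (all 64), 118 after quantile normalization (63), 19 with thresholds of 1 and 0.5, and 170 with a normal-N threshold of 0.6. Leaving out 1 library gave 59 to 73 genes with 57 to 63 members, and 40 members were selected in all 12 such selections. The count of members falling at low N was 19 of 48 tested with a filter at 5 FPKM, which tests fewer members; 23 rose there, and the members' median effect turned from -0.07 to 0.13. Among the 51 members kept with a pseudocount of 0.1, 26 rose and 19 fell. The counts of members rising, 21 to 27 over all settings run, stayed within 1.5 times the main count. For the 22 members named by the rule in the methods, 438 of 440 values of the average low-N effect under 20 alternatives kept direction and call; the exceptions were Potri.003G134600, which passed at 0.257 with a replicate block, and Potri.016G106100, which did not pass in either case and ranged, with 1 library left out, from -0.242 without wild-type low-N replicate 1 to 0.0285 without wild-type low-N replicate 3. Over all tested genes, the share of rises among calls was 66.8% with deposited values, 50.2% with median-of-ratios scaling and 50.6% with quantile normalization. Same-numbered libraries did not deviate together over all tested genes, with correlations of -0.127 to 0.0942 between groups. Such values cannot show whether libraries of the same number were handled together. With a replicate block, 18976 genes and 56 members were called.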

Other observations

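Among the members, 12 of 64 IDs (18.8%) do not end in 00, against 7.63% of all tested IDs. What this ending marks in the gene models is not given in the sources used here, and the difference was not tested.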
